A study of Mus musculus with 12 samples.

Results

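The Hox genes analysed here are the 40 protein-coding entries of the count table whose symbol is Hox, a cluster letter from a to d and a number, out of 54447 entries in all and 21969 protein-coding ones. They stand for 39 symbols, because Hoxd4 has 2 entries: 11 in the Hoxa cluster, 10 in Hoxb, 9 in Hoxc and 9 in Hoxd. RNA sequencing was done on fibroblasts that the labels call mouse embryonic fibroblasts and the study's methods call NIH3T3, an established mouse fibroblast line. The cells were pools infected with a lentiviral vector and selected with puromycin. The vector held N-VEGF, an N-terminal piece that is split from a longer VEGF protein, or NLS-N-VEGF, that piece behind a nuclear localization sequence, under a promoter that doxycycline (dox) switches on. The 4 groups of 3 libraries were NLS-N-VEGF cells before and after dox and N-VEGF cells before and after dox, so every library came from cells that carry a construct. Each group had libraries labelled 1_120519, 2_120519 and 2_290419. The ending of the label, here called the suffix and written _120519 or _290419, reads as a date, but the labels do not say what it marks, and nothing in them says that libraries came from separate cultures, so p-values measure the spread between these libraries.

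Hox genes encode homeodomain transcription factors that give cells of the body axis and limbs their position. They lie in 4 clusters that arose by duplication, and genes at the same place in different clusters form a paralogue group, numbered from the 3′ end of the cluster to the 5′ end. Low-numbered genes are active towards the head and high-numbered genes towards the tail and the ends of the limbs, and cultured fibroblasts are known to keep the set of Hox genes of the place they came from. Polycomb proteins hold silent Hox genes shut, and Trithorax proteins keep active ones open.

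Total counts per library lay between 13549331 and 18982127, and Hox genes took 1760 to 2488 of them, so the depth behind single members was low. A count of 3, taken as the floor, corresponded to 0.158 to 0.221 counts per 1000000 counts of a library (CPM). Fibroblast markers were present, with 12 of 14 at a mean of at least 1 transcript per 1000000 (TPM, a level per length) and a summed level of 6845 to 8525 TPM. Of the marker lists of other cells, 1 of 5 blood, 1 of 5 endothelial, 1 of 6 epithelial, 1 of 3 pluripotent and 1 of 6 muscle and neural genes reached 1 TPM. The summed blood list was 5.91 to 8.58 TPM with suffix _120519 and 12.3 to 13.5 TPM with suffix _290419, and the summed epithelial list 2.21 to 3.83 and 4.21 to 4.83 TPM. The blood sum was almost all Cd68 (5.85 to 13.45 TPM), as Ptprc, Adgre1, Cd3e and Hbb-bs had at most 5 counts in a library. The epithelial sum was mostly Krt14 (1.43 to 4.10 TPM) and Cdh1 (0.333 to 1.11 TPM), and Epcam, Krt5, Cldn4 and Ocln had at most 3 counts. The part of these genes in the differences between suffixes below was not tested. The row of the construct insert held 5 to 12 counts in the 6 libraries without dox. With dox it held 48, 35 and 173 counts in NLS-N-VEGF cells and 121, 149 and 268 in N-VEGF cells, in the order 1_120519, 2_120519 and 2_290419. The induced level thus differed between the suffixes and between the populations.

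Most expressed Hox genes lay in stretches of neighbours at low and middle paralogue groups up to group 9, and the genes of groups 10 to 13 had at most 2 counts in a library. A mean of at least 1 TPM was reached by 14 members, against 11020 of 21951 protein-coding genes with a length. Among them were Hoxa2 to Hoxa7 in the Hoxa cluster, Hoxc4, Hoxc5 and Hoxc6 in Hoxc, Hoxd8 and Hoxd9 in Hoxd, and Hoxb6 and Hoxb9 in Hoxb. In each library paralogue groups 4 to 8 held 77.0% to 81.9% of the summed Hox TPM, groups 1 to 3 held 10.7% to 12.7%, and groups 9 to 13 held 6.91% to 10.9%. By cluster, Hoxa held 50.6% to 61.4%, Hoxd 24.0% to 31.6%, Hoxc 11.7% to 15.7% and Hoxb 1.30% to 3.61%.

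**Figure D1:**
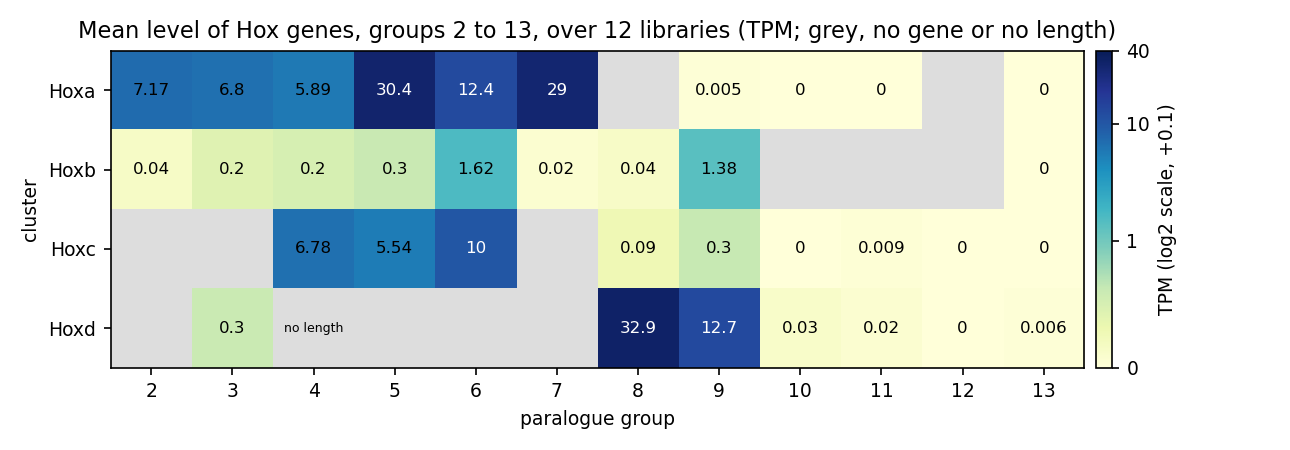
Mean level of the Hox genes of paralogue groups 2 to 13 in TPM over the 12 libraries, with clusters as lines and groups as columns; colour is on a log2 scale with 0.1 added, and grey marks places with no gene or a gene without a length. Hoxa2 to Hoxa7, Hoxc4 to Hoxc6, Hoxd8 and Hoxd9 stand out, and the Hoxb cluster is pale throughout, with Hoxb6 at 1.62 TPM and Hoxb9 at 1.38 TPM.

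In the Hoxa cluster (chromosome 6, minus strand, GRCm38), expression ran from the 3′ side and stopped after Hoxa7. Hoxa5 (ENSMUSG00000038253, chromosome 6, 52201754 to 52204587) had 30.4 ± 3.84 TPM and Hoxa7 (ENSMUSG00000038236, chromosome 6, 52214491 to 52221854) 29.0 ± 4.79 TPM (SD, n = 12), and their ranges of 24.2 to 36.7 and 22.8 to 40.5 TPM overlapped. Both are trunk genes, with Hoxa5 known for its part in lung and axial patterning. Hoxa6 followed with 12.4 ± 2.59 TPM (SD, n = 12). The next 3 lay close together: Hoxa2 (7.17 ± 0.903 TPM), which patterns the hindbrain and its neural crest, Hoxa3 (6.80 ± 1.01 TPM), which patterns the pharyngeal arches, and Hoxa4 (5.89 ± 1.08 TPM; SD, n = 12), and the range of each overlapped those of the other two. Hoxa9, 1245 bases from Hoxa7 along the cluster, had 2 counts over all 12 libraries, and Hoxa10, Hoxa11 and Hoxa13, genes of the posterior trunk, limbs and genital tract, had none. The reads of several members cannot be fully separated from those of neighbours, because the kit does not keep the strand. The strand option used in counting is not given. Whether reads on bases shared with a gene of the opposite strand were left out is therefore not known. Other annotated genes share 27.1% of the exon bases of Hoxa3, 20.4% of Hoxa7, 16% of Hoxa4 and 15% of Hoxa2. With only the unshared bases as the length, an alternative chosen after seeing the data, Hoxa3 had 9.33 TPM and Hoxa7 36.5 TPM. This length assumes that reads on shared bases were left out. With the longest transcript as the length, Hoxa3 had 12.2 TPM, above Hoxa2 with 5.53 and Hoxa4 with 4.54 TPM.

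In the Hoxd cluster (chromosome 2, 74668310 to 74765142, plus strand) the expressed genes were a single pair. Hoxd8 (ENSMUSG00000027102, chromosome 2, 74704615 to 74707933) had 32.9 ± 2.48 TPM (SD, n = 12), with 30.5 to 37.9 TPM over the libraries, a range that overlaps those of Hoxa5 and Hoxa7. This was the highest mean with the exon union as the length, but Hoxa7 was above it with longest transcripts (31.7 against 26.5 TPM) and with unshared bases (36.5 against 32.9 TPM). Its neighbour Hoxd9, which acts in the trunk and the early limb, had 12.7 ± 1.44 TPM (SD, n = 12), close to Hoxa6. On the 5′ side of the pair, 2621 bases on, Hoxd10 had at most 1 count in a library, Hoxd11 at most 2, Hoxd13 at most 1 and Hoxd12 none. On its 3′ side Hoxd3 had 0 to 14 counts, with 62.8% of its exon bases shared with other genes, and Hoxd1 had 1 count in 1 library. Of the Hoxd4 entries, the first had 0 to 4 counts per library and no length in the annotation used, and the second had no count.

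In the Hoxc cluster (chromosome 15, 102921103 to 103036852, plus strand) the 3′ end was expressed. Hoxc6 had 10.01 ± 1.14 TPM, Hoxc4 6.78 ± 1.03 TPM and Hoxc5 5.54 ± 0.932 TPM (SD, n = 12), and the ranges of Hoxc4 and Hoxc5 overlapped. These genes act in the neck and anterior trunk. Hoxc8, across a gap of 4145 bases from Hoxc6, had 0 to 5 counts and Hoxc9 2 to 7 counts per library, Hoxc11 had 1 count in 1 library, and Hoxc10, Hoxc12 and Hoxc13 had none.

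The Hoxb cluster (chromosome 11, 96194316 to 96368256, plus strand) was low in every library, although it holds 10 members. Hoxb6 had 1.62 ± 0.505 TPM (SD, n = 12) from 9 to 31 counts. Hoxb5 had 2 to 14 counts, Hoxb3 0 to 10, Hoxb4 0 to 7 and Hoxb2 0 to 2, while Hoxb1 and Hoxb7 had at most 2 and 1, and Hoxb13 had none. Hoxb9 had 1 to 53 counts and is described with the suffixes below. Over all clusters 9 entries had no count in any library, 14 had counts but fewer than 10 in each, and 3 (Hoxb3, Hoxb5 and Hoxd3) reached 10 counts in some library without reaching 1 TPM. At these depths a count of 0 says only that the level was under the floor.

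**Figure D2:**
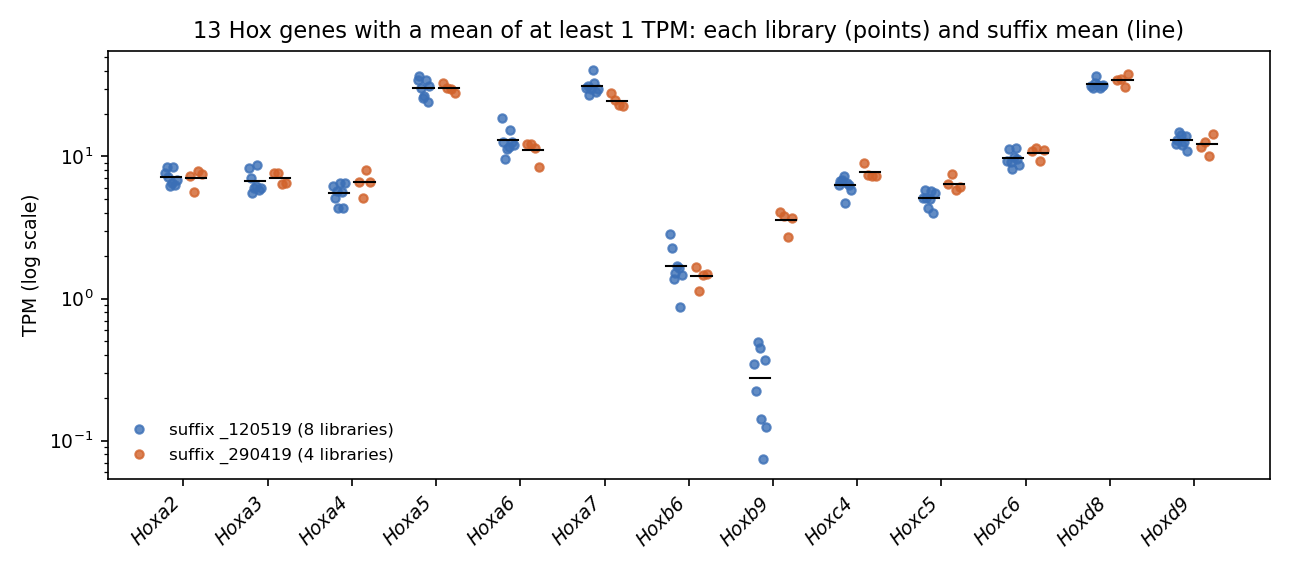
Level of 13 Hox genes with a mean of at least 1 TPM, on a log scale, with a point for every library coloured by suffix and a line at the mean of each suffix. For 12 of the genes the suffixes lie close together or touch, and for Hoxb9 all 4 libraries of suffix _290419 lie above the 8 of suffix _120519.

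The sequences before the start sites are shown for 3 members on which the results turn, Hoxd8, among the most abundant members, Hoxa7, which differed between the suffixes, and Hoxb8, whose few counts came from a single suffix. They are the 250 bases before the RefSeq start in GRCm38.p6, written 5′ to 3′ on the strand of the gene, with the dinucleotide CG in capitals.
Hoxd8, chr2:74704365-74704614, plus strand: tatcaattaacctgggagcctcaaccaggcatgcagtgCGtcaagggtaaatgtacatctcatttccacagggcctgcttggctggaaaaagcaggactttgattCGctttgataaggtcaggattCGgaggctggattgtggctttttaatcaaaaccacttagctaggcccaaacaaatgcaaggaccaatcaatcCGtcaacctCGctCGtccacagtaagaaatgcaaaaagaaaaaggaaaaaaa
Hoxa7, chr6:52218574-52218823, minus strand: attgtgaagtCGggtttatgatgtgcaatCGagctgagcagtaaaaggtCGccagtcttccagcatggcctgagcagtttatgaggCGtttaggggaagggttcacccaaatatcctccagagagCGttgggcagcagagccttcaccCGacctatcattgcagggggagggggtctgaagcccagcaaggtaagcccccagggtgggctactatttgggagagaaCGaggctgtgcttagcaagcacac
Hoxb8, chr11:96281655-96281904, plus strand: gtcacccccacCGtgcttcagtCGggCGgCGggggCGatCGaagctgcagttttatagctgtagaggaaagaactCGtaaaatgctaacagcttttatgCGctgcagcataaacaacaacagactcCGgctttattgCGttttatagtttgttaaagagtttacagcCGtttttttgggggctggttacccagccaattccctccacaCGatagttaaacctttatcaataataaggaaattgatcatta

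RefSeq gave 24 such windows for 22 Hox symbols. The median number of CG in a window was 12.5, against 6.0 over all 32851 promoter windows of that length. The 8 windows of members with at least 1 TPM had a median of 10.5 and the 16 of other members, some of which had counts, also 12.5. Only 8 of the 14 members with at least 1 TPM had a window, so no conclusion is drawn on expressed against silent members. Hoxd8, among the most abundant members, had 6 CG, and Hoxa13, with no count, had 35. The letters TGATNNAT, which Hox proteins bind together with Pbx proteins, were found on either strand in 4 of the 24 windows (16.7%, against 7.70% of all windows). CCAAT was found in 14 (58.3% against 33.8%) and TATAAA in 4 (16.7% against 12.4%), and matches of these motifs may overlap. The window of Hoxb8 held all 3 motifs and those of Hoxa7 and Hoxd9 held none.

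Members of the family are alike in the homeobox, the stretch that encodes the DNA-binding homeodomain, which bears on whether reads can be given to the right gene. Over the 91 pairs of members with at least 1 TPM, the longest run of identical bases shared by their transcripts was 47 bases, between Hoxa6 and Hoxa7, with a median of 16 bases. Over all 741 pairs, which include members under 1 TPM, the longest run was 52 bases, between Hoxa6 and Hoxb4, and 2 pairs had 50 or more. These runs are shorter than the reads that the study's methods describe, before those were trimmed by quality.

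The next question was whether this code differed between the suffixes. Between _290419 and _120519, 6207 of the 13608 genes tested had an adjusted p under 0.05 in edgeR's quasi-likelihood test with Benjamini-Hochberg adjustment (45.6%), and 677 of these differed at least 2-fold (4.98%). Of the 15 Hox genes that passed the filter on low counts, 4 were called, Hoxb9, Hoxc4 and Hoxc5 as higher and Hoxa7 as lower with _290419, and of these Hoxb9 alone differed at least 2-fold. The share called, 4 of 15, lay under that of all genes. The median log2 difference of the 15 was 0.10, against 0.01 over all genes. The suffixes did not overlap in CPM for the same 4 genes, or 26.7% of the 15, against 28.0% of all genes tested.

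Hoxb9 (ENSMUSG00000020875, chromosome 11, 96271457 to 96276595) was the member that differed most. It had 48 and 53 counts in the _290419 libraries of the NLS-N-VEGF population before and after dox, and 41 and 49 in those of N-VEGF cells. In the _120519 libraries it had 5 and 3 counts in NLS-N-VEGF cells before dox, 8 and 5 after it, 2 and 1 in N-VEGF cells before dox, and 5 and 2 after it. All 4 libraries of _290419 were thus above all 8 of _120519, in both populations and with and without dox. The mean was 3.05 ± 0.461 CPM with _290419 (SD, n = 4) and 0.235 ± 0.133 CPM with _120519 (SD, n = 8), a log2 difference of 3.68 (SE 0.25, edgeR adjusted p 4.41e-08). From the summed counts, 191 against 31, the ratio was 12.9, with an exact 95% binomial interval of 8.81 to 19.5 that covers counting error only. Hoxb9 passed the filter only through the _290419 libraries, so that it had to differ to be tested. In an exact permutation test that moves the suffix among the libraries of each group, two-sided and without regard to the filter, the observed placement was the most extreme of 81 (p = 0.0123, the smallest this design allows). Hoxa7 and Hoxc4 reached the same value. The test moves the suffix in each group separately, although deviations of the 2_290419 libraries correlated across groups by 0.644 to 0.805. Hoxb9 was also singled out from these data, so no conclusion is drawn from this p-value. In TPM, Hoxb9 rose from 0.278 ± 0.158 to 3.58 ± 0.603 (SD), from below Hoxb6 to above it.

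The genes next to Hoxb9 were followed in the same libraries, on either side along the cluster; those without a Hox symbol were chosen after their values were seen. Gm53, a long noncoding RNA gene (chromosome 11, 96251105 to 96264868) that ends 6588 bases before Hoxb9 on the same strand, had 24 to 40 counts with _290419 and 3 to 6 with _120519. Its log2 difference was 2.94 (SE 0.24, edgeR adjusted p 2.72e-07), and it too passed the filter only through the _290419 libraries. Mir196a-1, 295 bases beyond Gm53, had 2 counts in NLS-N-VEGF dox 2_290419, 3 in N-VEGF 2_290419 and none in any other library. Its mature product miR-196a-5p is known to cleave Hoxb8 mRNA; its sequence (RefSeq, chr11:96265187-96265208, plus strand) is shown with the seed in capitals.
mmu-miR-196a-5p: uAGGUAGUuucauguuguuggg

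Hoxb8, 5309 bases after Hoxb9, had 1, 1, 3 and 2 counts in the _290419 libraries and 0 in all 8 of _120519. From the summed counts, 7 against 0, the exact 95% binomial interval of the ratio had a lower limit of 3.02, which covers counting error only, and no single library was above the floor of 3 counts. Hoxb8 did not pass the filter, and in the fit without a filter it was called (edgeR adjusted p 0.0291). It was singled out by its values in these data. How often genes with so few counts split by suffix was not worked out, so no conclusion is drawn from the interval or the call. Other members of the cluster with few counts went both ways. Hoxb3 had a mean of 0.106 CPM with _290419 and 0.314 CPM with _120519, Hoxb4 0.162 and 0.215 CPM, and Hoxb5 0.394 and 0.260 CPM. None of them passed the filter. Gm11539, a pseudogene between Hoxb13 and Gm53, had 0.192 CPM with _290419 and 0.347 CPM with _120519. Hoxb7 had 1 count in 2 libraries of _120519 and none with _290419, Hoxb6 had 0.943 ± 0.159 CPM with _290419 (SD, n = 4) and 1.10 ± 0.368 CPM with _120519 (SD, n = 8; log2 difference -0.21, SE 0.23, edgeR adjusted p 0.484), and Hoxb13, on the far side of Gm53, had no count with either.

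**Figure D3:**
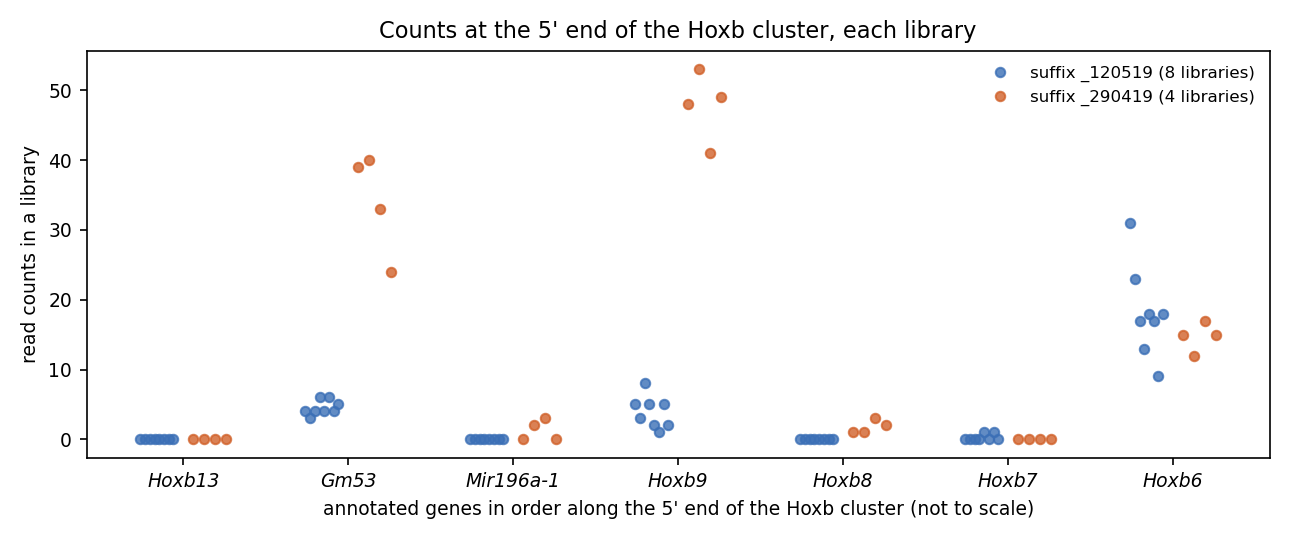
Read counts in each library for chosen genes at the 5′ end of the Hoxb cluster, in their order along the chromosome, coloured by suffix. Gm11539, which lies between Hoxb13 and Gm53, is among those not drawn. Gm53 (24 to 40 counts) and Hoxb9 (41 to 53 counts) are high in the 4 libraries of suffix _290419 and low in the 8 of _120519, Mir196a-1 and Hoxb8 have counts with _290419 alone, and the suffixes overlap for Hoxb6.

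Hoxa7 was lower with _290419. It had 27.8, 24.9, 22.9 and 22.8 TPM in the _290419 libraries of NLS-N-VEGF, NLS-N-VEGF dox, N-VEGF and N-VEGF dox cells, and 27.0 to 40.5 TPM in the 8 of _120519 with a median of 30.2. The suffixes met at the edge: in TPM they overlapped, and in CPM they did not, with 22.5 to 26.1 against 26.2 to 39.7. Its log2 difference was -0.33 (SE 0.09, edgeR adjusted p 0.0051), from 29.6 ± 4.33 CPM (SD, n = 8) to 23.5 ± 1.74 CPM (SD, n = 4). Hoxaas3, which shares exon bases with Hoxa7 on the opposite strand, had a log2 difference of 0.00 (edgeR adjusted p 0.997).

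Hoxc4 (ENSMUSG00000075394, chromosome 15, 103018934 to 103036852) and Hoxc5 (ENSMUSG00000022485, chromosome 15, 102967443 to 103017429) were higher with _290419 by a smaller step. Hoxc4 had 8.94, 7.45, 7.34 and 7.29 TPM in the _290419 libraries, in the same order of groups, and 4.72 to 7.26 TPM in those of _120519, so all 4 were above all 8. Its log2 difference was 0.32 (SE 0.11, edgeR adjusted p 0.0268). Hoxc5 had 6.44, 7.52, 5.77 and 6.06 TPM with _290419 and 4.03 to 5.79 TPM with _120519, overlapping slightly in TPM and not in CPM. Its log2 difference was 0.35 (SE 0.12, edgeR adjusted p 0.0278). Both calls rested on single libraries. Hoxc4 was no longer called without NLS-N-VEGF 1_120519, NLS-N-VEGF 2_290419, N-VEGF 2_290419 or N-VEGF dox 2_290419 (edgeR adjusted p 0.0586, 0.129, 0.1 and 0.073), nor in DESeq2 (adjusted p 0.054). Hoxc5 was no longer called without NLS-N-VEGF 1_120519 or 2_290419 (edgeR adjusted p 0.0537 and 0.0572), NLS-N-VEGF dox 2_120519 or 2_290419 (0.0597 and 0.145), or N-VEGF dox 1_120519 or 2_290419 (0.0585 and 0.0823). The third expressed gene of the cluster, Hoxc6, had a log2 difference of 0.15 (SE 0.10, edgeR adjusted p 0.246).

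The other 11 tested members were not called, with log2 differences between -0.21 and 0.25. Those of Hoxd8 (0.12, SE 0.06, edgeR adjusted p 0.153), Hoxa5 (0.00, SE 0.09, edgeR adjusted p 0.969) and Hoxd9 (-0.08, SE 0.10, edgeR adjusted p 0.537) bear on the most abundant genes. The set of members with at least 1 TPM was therefore 13 with _120519 alone and 14 with _290419 alone, the difference being Hoxb9. Of the summed Hox TPM, the Hoxb cluster held 1.30% to 2.47% with _120519 and 3.33% to 3.61% with _290419, and the Hoxc cluster 11.7% to 13.6% and 13.9% to 15.7%. Hoxa held 54.1% to 61.4% and 50.6% to 56.9%, and Hoxd 24.0% to 31.6% and 25.7% to 31.1%, with overlap in both. In TPM the Hoxb sum was 2.01 to 4.45 with _120519 and 5.38 to 6.27 with _290419. Of this, Hoxb9 made up 0.074 to 0.492 and 2.70 to 4.08 TPM. The mean of Hoxb6 was 1.71 TPM with _120519 and 1.44 TPM with _290419, so the Hoxb difference was not one of the whole cluster.

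**Figure D4:**
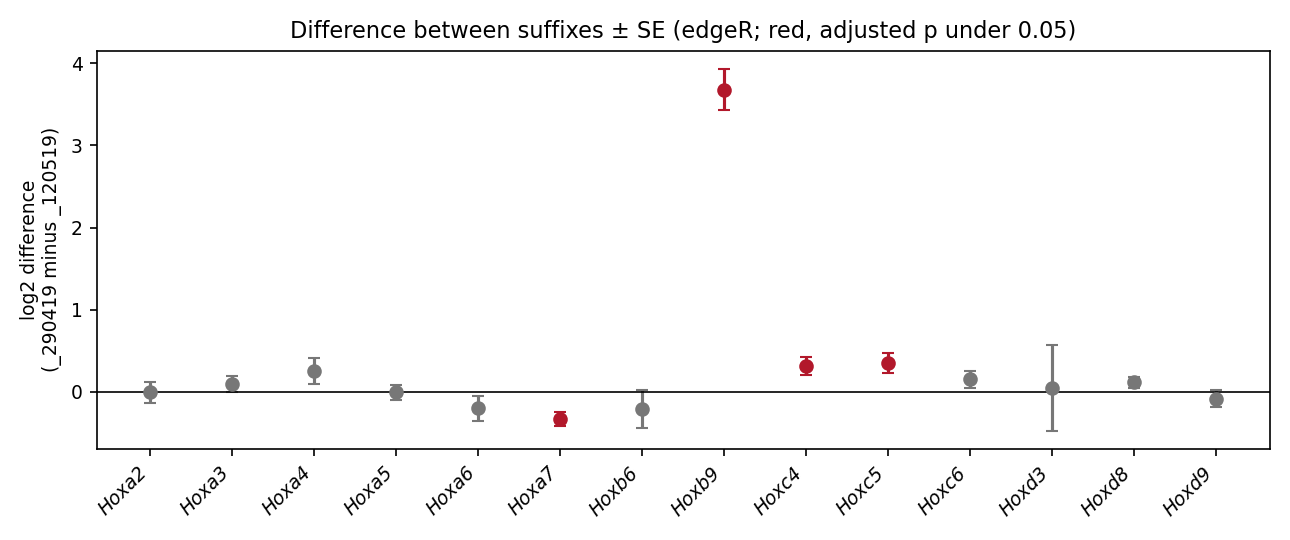
Log2 difference of 14 tested Hox genes between suffix _290419 and suffix _120519, with the standard error as a bar, in the order of the clusters; red marks an edgeR adjusted p under 0.05. Hoxb9 stands at 3.68 and the other members shown lie between -0.33 and 0.35.

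No Hox gene was called with dox. In NLS-N-VEGF cells 0 of 15 members were called, beside 3 of 13608 genes (0.022%), and in N-VEGF cells 0 of 15, beside 5 genes (0.0367%). Averaged over the populations 0 of 15 were called, beside 8 genes (0.0588%). In edgeR's quasi-likelihood test 1, 0 and 2 members had an unadjusted p under 0.05 in these comparisons, and DESeq2 also called 0 members in each, with 0, 0 and 1 members at an unadjusted p under 0.05. Under a block for the replicate label, the genes called rose to 17, 15 and 77, and the members called stayed at 0. In that edgeR fit 2, 0 and 4 members had an unadjusted p under 0.05.

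Although no member passed, the clusters leaned different ways. All 7 tested Hoxa genes were below 0 in NLS-N-VEGF cells, with log2 differences of -0.39 to -0.12, and in N-VEGF cells, where Hoxa7 was lowest with -0.25. Averaged over the populations, Hoxa6 had -0.29 (SE 0.16), Hoxa3 -0.23 (SE 0.10) and Hoxa5 -0.19 (SE 0.09), each with an edgeR adjusted p of 1.0, and 48.5% of all genes were below 0. With the replicate block, which takes out the spread between labels, the edgeR adjusted p was 0.565, 0.423 and 0.484 for these genes. The summed level of the Hoxa cluster in NLS-N-VEGF cells went from 79.6 ± 2.63 CPM to 68.3 ± 1.71 CPM under dox, and that in N-VEGF cells from 80.1 ± 7.24 CPM to 70.3 ± 5.02 CPM (SD, n = 3). In NLS-N-VEGF cells these ranges did not overlap (76.6 to 81.3 against 67.0 to 70.3 CPM), and in N-VEGF cells they did (71.7 to 84.9 against 66.0 to 75.9 CPM). In all 6 pairs of the same label the sum was lower with dox, by log2 ratios of -0.36 to -0.05. Neighbouring genes of a cluster are not independent of each other, and no member of the sum passed by itself. How often other genes separate in this way, or fall in every pair, was not worked out, so the sum has no background to be read against.

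Hoxb6 had the lowest value, with 31, 23 and 15 counts without and 17, 13 and 12 after dox among NLS-N-VEGF libraries, and 18, 17 and 17 without and 9, 18 and 15 with dox in N-VEGF cells. Its log2 difference averaged over the populations was -0.53 (SE 0.22, edgeR adjusted p 1.0). The Hoxc genes stayed near 0, with Hoxc4 at 0.02, Hoxc5 at -0.05 and Hoxc6 at -0.08. Hoxd8 (0.12, SE 0.07) and Hoxd9 (0.18, SE 0.10) were above 0, and the summed Hoxd level was higher with dox in 5 of 6 pairs, with log2 ratios of -0.04 to 0.32. Hoxb9 had 0.26 with a wide error (SE 0.99), since its libraries of different suffix lie far apart; between libraries of the same label its log2 ratio, with 0.5 CPM added, was -0.11 to 0.39 over the 6 pairs. The difference of the dox effects between the populations gave 0 called members of 15 and 0 called genes (0%), with 0 members at an unadjusted p under 0.05 in edgeR and 0 in DESeq2.

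**Figure D5:**
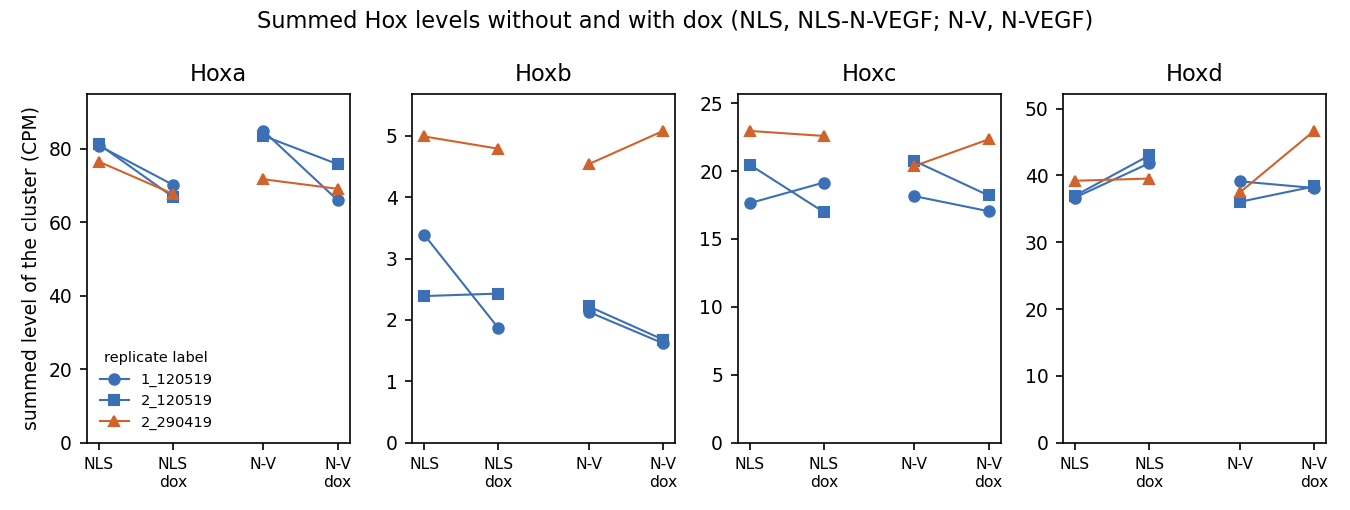
Summed level of each Hox cluster in CPM, without and with dox, with a line for each pair of libraries of the same replicate label. The Hoxa lines fall in all 6 pairs and most Hoxd lines rise. The Hoxb levels of suffix _290419 (triangles), sums that include Hoxb9, lie above all of _120519, and the Hoxc levels of the suffixes overlap. The vertical scales differ between clusters.

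No Hox gene was called between the populations. Comparing NLS-N-VEGF cells with the N-VEGF population, 0 of 15 members were called without dox, with dox and averaged over dox, and edgeR called no other gene either (0% in each). No member had an unadjusted p under 0.05 in these comparisons, in edgeR or in DESeq2. The log2 differences averaged over dox ran from -0.24 for Hoxa4 to 0.34 for Hoxd3, with a median of 0.04, and each of the 12 members other than Hoxb6, Hoxb9 and Hoxd3, which have few counts, lay between -0.24 and 0.15. Under that block 2 of 13608 genes were called with dox, and none was a Hox gene. Of the members, 14 had a mean of at least 1 TPM in NLS-N-VEGF cells before and after dox and in N-VEGF cells after dox, and 13 in N-VEGF cells before dox, where Hoxb9 had 0.974 TPM.

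Transcripts of genes whose products act with Hox proteins were present, and some differed between the suffixes. The lists that follow, like the members, were chosen with results of these data known. Of 9 partner genes of the Pbx, Meis and Pknox families, which bind DNA together with Hox proteins, 8 had at least 1 TPM, and Pknox2 had 0 to 2 counts. Among the 8 tested, 4 were higher and 3 lower with _290419, a share above the 45.6% of all genes. Meis3 rose by a log2 difference of 0.48 and Pbx4 by 0.96 (edgeR adjusted p 7.44e-05 and 0.00082), and Meis2 and Pbx3 by 0.28 and 0.27 (0.0016 and 0.0071). Among the lower, Pknox1 fell by 0.21 on the log2 scale and Pbx2 by 0.16 (edgeR adjusted p 0.0111 and 0.0419).

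Of the Polycomb genes all 22 had at least 1 TPM, and 7 were higher and 8 lower with _290419, 15 of 22 beside 45.6% of all genes. Among the higher were Pcgf2 (log2 difference 0.34), Eed (0.39), Rbbp7 (0.28) and Ezh2 (0.21), the last an H3K27 methyltransferase. The lower included Cbx2 (-0.67), Rnf2 (-0.48) and Cbx8 (-0.67), subunits of the complex that binds the methylated histone or marks H2A, at edgeR adjusted p of 9.68e-07 to 0.00024. All 13 Trithorax, demethylase and insulator genes were expressed, and 0 were higher and 5 lower with _290419, 5 of 13 and thus a share under the 45.6% of all genes. Kmt2c (-0.58), Kmt2a (-0.45), a histone methyltransferase needed to keep Hox genes active, Men1 (-0.27) and Kdm6b (-0.39) had the smallest p among them (edgeR adjusted p 1.56e-05 to 0.0015). The median log2 differences of the 2 lists were -0.06 and -0.11, against 0.01 over all genes.

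Of 22 noncoding genes of the clusters, 17 were in the table and 4 had at least 1 TPM, among them Hotairm1 at 7.95 TPM, in the Hoxa cluster. Of the 5 tested, Hoxd3os1, antisense to Hoxd3, was higher with _290419 (log2 difference 0.51, SE 0.14, edgeR adjusted p 0.0081) and none was lower, a share under the 45.6% of all genes. Gm15050, in the Hoxa cluster and named after its values were seen, was higher by 0.67 (SE 0.14, edgeR adjusted p 0.0014). Among 18 genes flanking the clusters that were in the table, 13 were tested, 1 was higher (Hnrnpa1, 0.22) and 2 lower (Calcoco1, -0.64, and Atf2, -0.16), at edgeR adjusted p of 3.97e-05 to 0.0312, a share under the 45.6% of all genes.

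Genes of other families that mark position were followed as well. Of 44 homeobox, T-box and forkhead genes 19 had at least 1 TPM, led by the mesenchyme gene Prrx1 (145 TPM), Twist1 (64.1 TPM), Foxf2 (62.5 TPM) and Tbx15 (62.0 TPM). The forelimb gene Tbx5 had 0 to 4 counts and the hindlimb gene Pitx1 0 or 1, while Tbx4, also a hindlimb gene, had 3.93 TPM. With _290419, 4 were higher, among them Tbx18 (log2 difference 0.30), Lhx9 (0.62) and Dlx2 (0.29), and 7 lower, such as Foxf1 (-0.96), Pax9 (-0.50) and Prrx1 (-0.21), at edgeR adjusted p of 0.00166 to 0.00465. These are 11 of 19 tested, beside 45.6% of all genes. Of 14 genes of the retinoic acid pathway, which sets Hox expression in the embryo, and its surroundings, 9 had at least 1 TPM. The binding protein Crabp1 had 1735 TPM and was lower with _290419 (-0.54, edgeR adjusted p 0.00046), while Crabp2 (1.81) and Rdh10 (0.48), which makes retinal, were higher (edgeR adjusted p 0.00012 and 5.51e-06). Of 10 tested, 2 were higher and 6 lower, beside 45.6% of all genes called, also Rara (-0.37), Rxra (-0.25) and Gdf11 (-0.22). With dox, averaged over the populations, 0 genes of these 7 lists were called in edgeR, and the list medians lay between -0.04 and 0.01.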

How the data were processed

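The data are 12 RNA sequencing libraries. The authors prepared libraries with the TruSeq RNA kit v2, which does not keep the strand, and deposited raw counts per gene. Per the labels and the study's methods, reads were trimmed with Trim Galore (cutadapt 1.10), aligned with TopHat2 2.1.0 and Bowtie2 2.2.6 to GRCm38 and counted with HTSeq 0.6.1; the strand option is not given in the sources used here.

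Members and gene lists were chosen with earlier results of these data known. Counts were tested with edgeR 4.0.16 in R 4.3.3. Genes were filtered with filterByExpr by group and scaled by TMM. The model had a mean for each of the 4 groups, or group and suffix for the suffix comparison. Calls had a two-sided Benjamini-Hochberg adjusted p under 0.05 over all 13608 genes. CPM used the TMM-scaled total. TPM used the union of exon bases in GENCODE mouse release 21 (GRCm38), in which 54409 of 54446 gene identifiers were found. Exact binomial intervals are at the 95% level, and intervals and floors cover counting error only. Promoters and miR-196a are from RefSeq, and shared runs of bases were found in GENCODE transcripts. Ranges over libraries are the lowest and highest value. Members with a mean of at least 1 TPM and members called in any comparison were named with values, members with 10 counts in a library with their range, and of each list up to 4 called genes in each direction by the smallest p; the values of some of these genes, a member among them, are not reported here, while counts and sums include them. Scripts were tested on simulated counts.

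The replicate label (number and suffix) pairs libraries across groups. Deviations from group means correlated in all 18 pairs of the same label, by 0.348 to 0.805, so the label was also fitted as a replicate block. It correlated 0.165 to 0.629 in 12 pairs that share only the suffix. Libraries of a group all differed by more than sampling noise (chi-square per degree of freedom 1.76 to 76.1). Between the _120519 libraries it was 1.76 in NLS-N-VEGF, 5.02 in NLS-N-VEGF dox, 3.08 in N-VEGF dox and 26.6 in N-VEGF cells. The highest Hoxa7 level, 40.5 TPM, was in N-VEGF 1_120519. Alternatives were DESeq2 1.42.0, RLE scaling, other filters, the replicate block, suffix _120519 alone, each library left out, a 2-fold threshold and other lengths.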

Additional observations from a re-analysis of the deposited data

How the results depend on the processing

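Of the members called between the suffixes, Hoxb9 and Hoxa7 were called in every alternative fit that tested them, and Hoxb9 could not be tested with at least 10 counts in every library. The count of called members was 4 with the replicate block, the same members, beside 6232 of 13608 genes. It was 1 with the 2-fold threshold, beside 677 genes, and 2 to 4 when a library was left out. It was 2 without NLS-N-VEGF 1_120519, NLS-N-VEGF 2_290419 or N-VEGF dox 2_290419. Without a filter 4 of 31 members were called, beside 6405 of 31229 genes. The call of Hoxc4 was lost (edgeR adjusted p 0.0804), and Hoxb8, not tested otherwise and with 7 counts in all, was gained (edgeR adjusted p 0.0291). For dox and for the populations 0 members were called under each of 18 alternatives. The count of members with at least 1 TPM stayed at 14 with longest transcripts as length, at 0.5 TPM and without each library. Log2 differences near 0 changed sign. With at least 10 counts in every library, the suffix difference was 0.015 for Hoxa2 and 0.014 for Hoxa5. When a library was left out, it ranged from -0.093 to 0.084 for Hoxa2, -0.05 to 0.033 for Hoxa5 and -0.629 to 0.338 for Hoxd3. The dox difference ranged from -0.988 to 1.814 for Hoxb9, -0.056 to 0.096 for Hoxc4 and -0.174 to 0.03 for Hoxc5. The cause was not tested. Hoxb6 and the 7 Hoxa genes kept the sign of their dox difference in every alternative run. Members with few counts, such as Hoxb8 and Hoxd3, are limited by depth.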
